A study of Mus musculus with 3 samples.

Results

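Solute carriers were followed in mouse liver RNA compared with Universal Mouse Reference RNA (UMRR). Each of 3 arrays hybridised both RNAs. Genes were taken by name, as probes with a single symbol in the platform annotation that begins with Slc or Slco. The anion exchanger of red blood cells, Slc4a1, was left out. This gave 152 probes and 113 genes, of 16273 probes and 7984 genes with a single symbol in all. Of these, 92 of the 152 probes and 74 of the 113 genes had a ratio on all 3 arrays, and these 74 entered the test together with all other genes (5520 in all).

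The liver RNA was bought as total RNA and labelled with Cy5, and UMRR, RNA pooled by its maker from several mouse cell lines, was bought and labelled with Cy3. The sources used here name no strain, sex or age of the liver donors. The 3 arrays repeat a single pair of catalogue RNAs in a single dye orientation, so p-values measure how far repeat arrays scatter, not how far livers vary, and dye and RNA cannot be told apart in any ratio. Fewer cells of a type and less RNA per cell cannot be told apart either. Every value below is a log ratio of liver over UMRR, read as log2, so a positive value means higher in liver. The base and the direction are not stated in the deposited table. The direction was read from hepatocyte genes, and natural logs would multiply each log2 value by 1.44.

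Marker genes gave the following. The 4 hepatocyte secretory genes with a ratio on all arrays (Apoc3, Vtn, Rbp4 and Ambp) lay between 4.01 and 5.17. They set the direction, so they are no check of the liver label, which was not tested otherwise. Genes of pancreatic acinar cells were about as far on the liver side, with 11 of 12 past the test (against 64.0% of all genes tested). Their median was 4.43 (medians of 4.15, 4.61 and 4.49 on arrays 1, 2 and 3). Of 4 erythroid genes, 3 were higher (against 30.1% of all genes tested), all of them globins, with a list median of 3.91. The part of acinar and erythroid RNA in the values of solute carriers was not tested. Array 1 stood apart. Over the 74 genes, arrays 2 and 3 differed with an SD of 0.20, while array 1 differed from array 2 with an SD of 0.45 and from array 3 with an SD of 0.37. Over all genes the same SDs were 0.21, 0.43 and 0.38.

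Solute carriers are membrane proteins that move small molecules along or against a gradient without splitting ATP directly. In hepatocytes they take up amino acids, sugars, bile acids and drugs from the blood, export iron and glucose, and pass metabolites between cytosol and mitochondria, the last being the work of the Slc25 family. Many growing cell lines take up amino acids through complexes with the heavy chain Slc3a2 and export lactate through Slc16 carriers. Whether growth bears on the ratios below was not tested.

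By limma, 48 of the 74 genes (64.9%) passed at a Benjamini-Hochberg adjusted p of 0.05, against 64.0% of all genes tested. Of the 48, 32 were higher in liver (43.2% of the 74, against 30.1% of all genes) and 16 were lower (21.6%, against 33.9%). A difference of at least 2-fold in the same direction on all 3 arrays, counted with no test, was found for 16 genes on the liver side (21.6%, against 9.46% of all genes) and 5 on the UMRR side (6.76%, against 9.53%). The median of the 74 genes was 0.17 (0.28 without array 1), beside -0.028 over all genes. Without array 1, 60 of the 74 genes passed (39 higher and 21 lower), against 4004 of all 5520. With exact zeros, which were otherwise read as no ratio, kept as ratios of 1, 38 of 113 genes passed, against 2391 of all 7984.

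The Slc25 family, the carriers of the inner mitochondrial membrane, supplied 12 of the 32 genes that were higher. Of its 20 measured genes, 12 rose (60.0%, against 30.1% of all genes) and 2 fell (10.0%, against 33.9%). In either direction, 70.0% passed the test, against 64.0% of all genes. The other 6 missed the threshold, and the median of the 20 was 0.59. At least 2-fold higher on every array were 8 of the 20 (40.0%, against 9.46% of all genes). The 54 other genes, with 3 that name no carrier among them, had 20 higher and 14 lower (37.0% and 25.9%). Of these, 8 were at least 2-fold higher and 4 at least 2-fold lower on every array. That was 14.8% and 7.41% of the 54, against 9.46% and 9.53% of all genes.

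**Figure D1:**
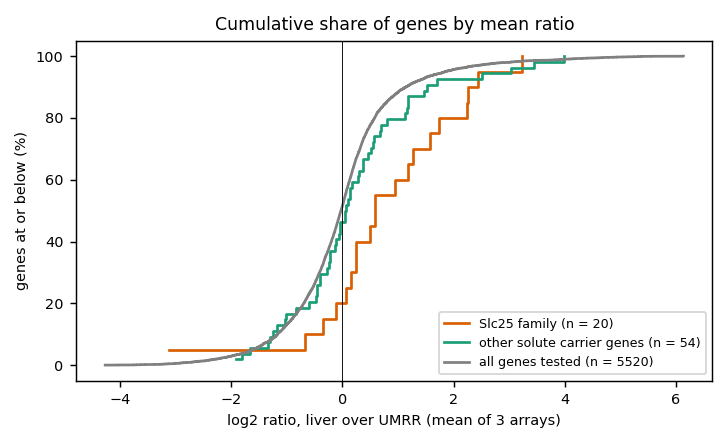
Cumulative share of genes (vertical axis, percent) by mean log2 ratio of liver over UMRR (horizontal axis), for 20 Slc25 genes, the 54 other solute carrier genes and all 5520 genes tested. The Slc25 curve lies to the right of the others over most of its range, with a single gene, Slc25a24, at -3.12 on the left.

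Within the family, Slc25a23 and Slc25a24 are related calcium-regulated carriers that exchange ATP-Mg for phosphate across the inner membrane. Slc25a23 had log2 ratios of 3.18, 3.28 and 3.24 on arrays 1, 2 and 3, a mean of 3.23 ± 0.052 (SD, n = 3) or 9.40-fold higher in liver (adjusted p = 3.18e-06 by limma). Slc25a24 had -3.12, -3.05 and -3.20, a mean of -3.12 ± 0.074 or 8.72-fold lower in liver (adjusted p = 3.43e-06). The difference of their log2 ratios was 6.29, 6.34 and 6.44 on the 3 arrays. Slc25a23 was read by 2 probes, with means of 2.99 and 3.47, and Slc25a24 by 1 probe. Slc25a24 was the lowest of the 74 genes and the only one among the 100 lowest of all genes tested.

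To show the DNA upstream of this pair, the 250 bases before the annotated start are printed from the RefSeq promoter table (build GRCm38.p6), in lower case, with short promoter motifs in capitals. The same window is given for Slc22a23, whose mean was second to that of Slc40a1, and for Slc3a2, whose values repeated most closely among the lower genes. The windows are chr17:57059864-57060113 on the minus strand (the first of 2 listed starts), chr3:109122899-109123148 on the plus strand, chr13:34345219-34345468 on the minus strand and chr19:8713898-8714147 on the minus strand.
Slc25a23: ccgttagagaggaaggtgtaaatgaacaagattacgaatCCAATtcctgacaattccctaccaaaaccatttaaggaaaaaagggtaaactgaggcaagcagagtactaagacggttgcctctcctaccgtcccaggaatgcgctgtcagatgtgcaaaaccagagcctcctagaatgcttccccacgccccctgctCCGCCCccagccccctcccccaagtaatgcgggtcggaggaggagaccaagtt
Slc25a24: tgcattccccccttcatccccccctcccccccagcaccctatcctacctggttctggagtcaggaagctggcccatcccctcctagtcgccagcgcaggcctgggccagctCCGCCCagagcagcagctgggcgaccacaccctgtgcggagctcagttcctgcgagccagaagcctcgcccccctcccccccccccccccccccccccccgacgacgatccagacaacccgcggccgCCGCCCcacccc
Slc22a23: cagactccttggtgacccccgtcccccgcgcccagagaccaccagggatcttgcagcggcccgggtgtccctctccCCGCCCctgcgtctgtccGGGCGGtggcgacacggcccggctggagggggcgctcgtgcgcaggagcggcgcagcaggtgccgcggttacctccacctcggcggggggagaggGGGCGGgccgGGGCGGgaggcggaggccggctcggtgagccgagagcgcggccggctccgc
Slc3a2: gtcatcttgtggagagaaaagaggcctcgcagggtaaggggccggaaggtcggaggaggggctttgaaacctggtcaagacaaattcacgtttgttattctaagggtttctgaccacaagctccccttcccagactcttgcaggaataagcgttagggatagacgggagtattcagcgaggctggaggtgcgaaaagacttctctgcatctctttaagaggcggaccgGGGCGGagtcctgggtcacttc
Searched on both strands were the TATA box (TATAAA), the CCAAT box, the GC box (GGGCGG), an E-box (CACGTG), a nuclear receptor half-site (AGGTCA) and an amino acid response element (TGATGNAA). Capitals mark 1 CCAAT box, in Slc25a23, and the GC box or its reverse complement in all 4 windows, 4 times in Slc22a23, 2 times in Slc25a24 and 1 time in each of the others. No hit overlapped another. Over the 32851 windows of the same length, 32.7% held a GC box, 33.8% a CCAAT box, 14.0% the half-site, 12.4% a TATA box, 6.02% the E-box and 3.45% the response element.

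Carriers of citrate, dicarboxylates and cofactors were also on the liver side. Slc25a1, the citrate carrier that feeds fatty acid synthesis, had log2 ratios of 2.13, 2.36 and 2.23 (mean 2.24 ± 0.12, 4.72-fold). Slc25a51, the mitochondrial NAD carrier, had 2.49, 2.40 and 2.41 (mean 2.43 ± 0.052, 5.40-fold). Slc25a16, a carrier linked to coenzyme A, had 2.55, 2.11 and 2.09 (mean 2.25 ± 0.26, 4.77-fold). All 3 genes were over 4-fold higher on each array, and none had an array near 0.

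Slc25a10, the dicarboxylate carrier that exchanges malate or succinate for phosphate, had 1.02, 2.11 and 2.08 (mean 1.74 ± 0.62, 3.33-fold). Its array 1 value was about 1 log2 unit below the other arrays, in both of its probes. Its adjusted p was 0.0787 without moderation of the variance and 0.0587 with exact zeros kept. Slc25a33, a pyrimidine nucleotide carrier, had 1.33, 1.75 and 1.66 (mean 1.58 ± 0.22). Slc25a39, which brings glutathione into mitochondria, had 1.06, 1.33 and 1.44 (mean 1.27 ± 0.20) over 4 probes, with probe means between 0.90 and 1.53. A further probe of Slc25a39 was at 2.12 and 1.95 on arrays 2 and 3 and another at 1.59 on array 2, and with exact zeros kept its adjusted p was 0.058. Slc25a5, an adenine nucleotide translocase, had 1.20, 1.18 and 1.13 (mean 1.17 ± 0.037) over the 2 probes measured on all arrays, though this gene has close paralogs and processed pseudogenes that its probes may also take up. Its other probes had no ratio on array 3 and were at 0.48 and 0.55, and at 1.22 and 1.42, on arrays 1 and 2. By the average of the probes measured on all arrays, each of these genes was at least 2-fold higher on every array.

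Smaller differences in the family were those of Slc25a11, the oxoglutarate-malate carrier (0.94 ± 0.097), Slc25a27, an uncoupling protein homologue (0.59 ± 0.26), Slc25a26, the S-adenosylmethionine carrier (0.59 ± 0.10), and Slc25a42, a coenzyme A carrier (0.50 ± 0.13), all higher. Slc25a53, a carrier without a settled substrate, was lower at -0.67 ± 0.23, but of its 2 measured probes the probe at -0.95 passed and the probe at -0.38 did not (adjusted p = 0.104). Without moderation of the variance, Slc25a27 (adjusted p = 0.101), Slc25a42 (0.056) and Slc25a53 (0.0743) missed the threshold, and with exact zeros kept Slc25a27 (0.0811) and Slc25a53 (0.0548) did. The 6 genes that did not pass lay between -0.35 and 0.25. They were Slc25a3, the phosphate carrier (0.25 ± 0.095, adjusted p = 0.0611), Slc25a46 of the outer membrane (0.25 ± 0.25), the glutamate carrier Slc25a18 (0.15 ± 0.17), the mitoferrins Slc25a28 (0.071 ± 0.33) and Slc25a37 (-0.11 ± 0.17), which import iron, and Slc25a35 (-0.35 ± 0.42). On array 1, Slc25a46 and Slc25a18 had the other sign than on arrays 2 and 3, and both passed without array 1, at 0.39 (adjusted p = 0.0029) and 0.24 (adjusted p = 0.0287). Slc25a28 also had the other sign on array 1, and without that array its mean was -0.11 (adjusted p = 0.258).

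**Figure D2:**
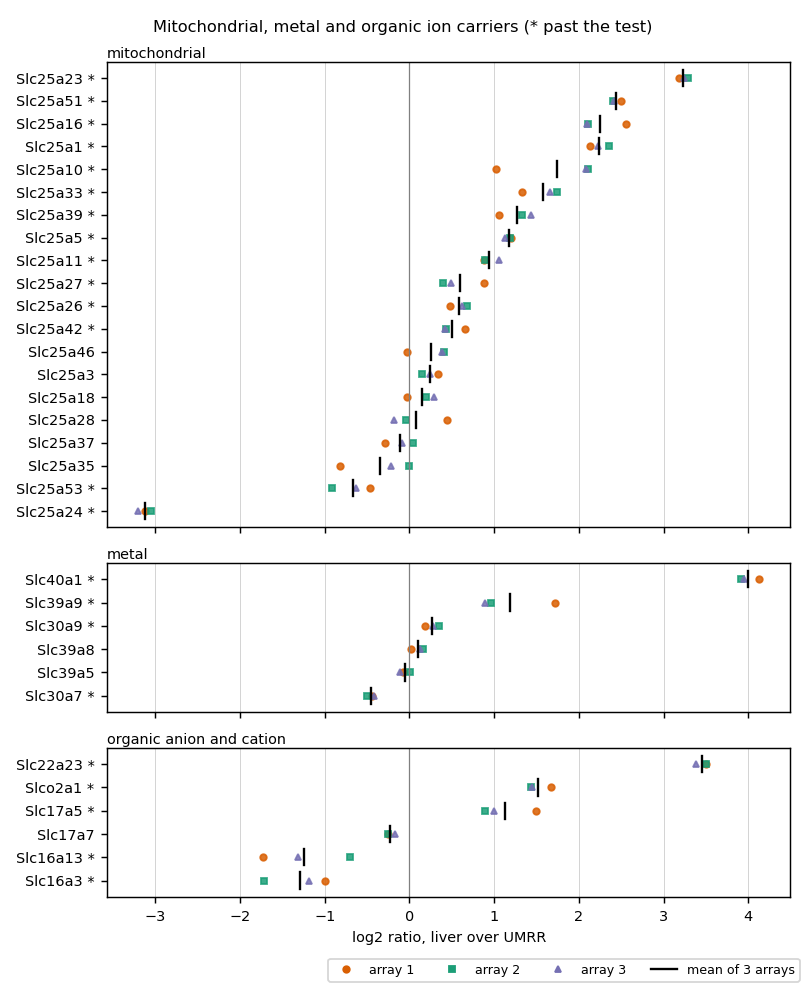
Log2 ratio of liver over UMRR (horizontal axis) on each array (points) with the mean of 3 arrays (black bar), for the mitochondrial, metal and organic ion carriers, with an asterisk after genes past the limma test. Slc40a1 lies farthest to the right at a mean of 3.998 and Slc25a24 farthest to the left at -3.12, while Slc25a10 and Slc39a9 show array 1 apart from the other arrays.

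The metal carriers were led by Slc40a1, ferroportin, the exporter through which macrophages, hepatocytes and gut cells release iron. Slc40a1 had log2 ratios of 4.13, 3.91 and 3.95 on arrays 1, 2 and 3. Its mean of 3.998 ± 0.12 (SD, n = 3), or 16.0-fold higher in liver (adjusted p = 2.16e-06), was the highest of the 74 genes and stood at place 55 of 5520. Slc40a1 is also a marker of Kupffer cells, the macrophages of liver. The other Kupffer cell marker with any ratio was C1qa, at 1.20 on array 2 and at 0 on the other arrays.

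Other genes of iron, copper and zinc handling were also on the liver side, with 8 of 8 measured members higher (against 30.1% of all genes) and a median of 1.68. Hamp2, a hepcidin gene, had a mean of 4.42 ± 0.18 and Hfe, a regulator of hepcidin, 2.83 ± 0.052. Tfrc, the transferrin receptor, was listed at 0 on every array. These genes come from a list of metal handling and are not solute carriers.

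The zinc carriers went different ways, mostly by small amounts. Slc39a9, a zinc importer of internal membranes, had 1.71, 0.96 and 0.89 (mean 1.19 ± 0.46, 2.28-fold), with array 1 higher than the others. Its adjusted p was 0.00141, but 0.0871 without moderation of the variance and 0.0671 with exact zeros kept, where its mean was 0.59 because a further probe had no ratio. Slc30a9 was higher at 0.27 ± 0.086, a call that was lost without array 2 or without array 3 (adjusted p = 0.241 in each case) and without moderation of the variance (0.0687). Slc30a7, which loads zinc into the secretory pathway, had -0.44, -0.51 and -0.42 (mean -0.45 ± 0.047, adjusted p = 0.00524). It was lower on every array, and missed the threshold without array 3 (adjusted p = 0.0502) and with exact zeros kept (-0.23, adjusted p = 0.158). Slc39a8, a carrier of zinc and manganese, had a mean of 0.10 ± 0.074 and did not pass.

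Slc39a5, a zinc importer, gave opposite answers from its probes. Probe 7096 had 0.26, 0.39 and 0.22 and was called higher (adjusted p = 0.0398 in the fit of single probes), while probe 13196 had -0.41, -0.37 and -0.43 and was called lower (adjusted p = 0.00961). Their average was -0.057 ± 0.060 and did not pass. In that fit 64.9% of all 9910 probes passed. The copper carriers Slc31a1 (1 probe) and Slc31a2 (3 probes) had no ratio on any array.

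**Figure D3:**
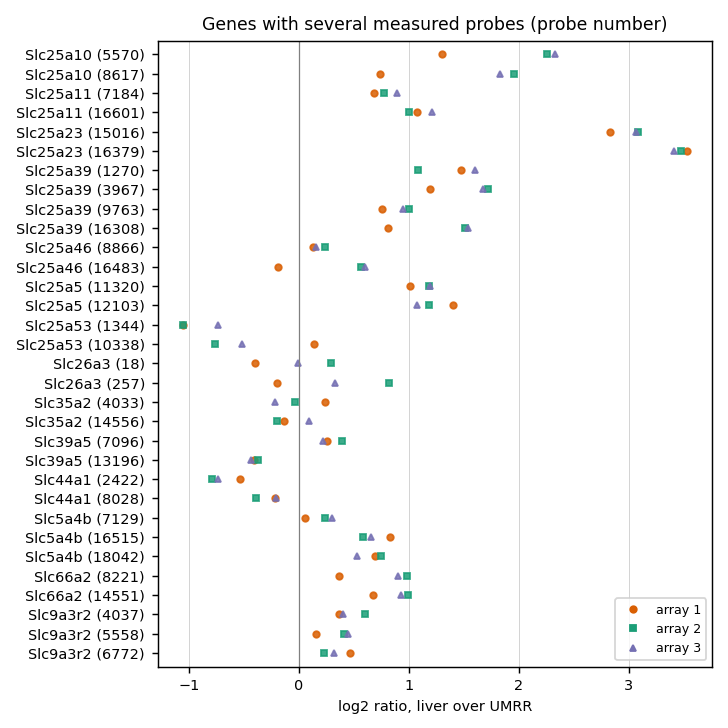
Log2 ratio of liver over UMRR (horizontal axis) on each array (points) for every probe of the 14 solute carrier genes with at least 2 probes measured on all arrays, each row being a gene with its probe number. The probes of Slc39a5 lie on opposite sides of 0, while the 4 probes of Slc25a39 lie on the liver side on every array.

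Probe agreement was examined in the 14 genes with at least 2 measured probes. The median distance between the highest and the lowest probe mean was 0.38 on the log2 scale. Slc39a5 was the only gene of the 14 with probes called both ways, and Slc26a3 also had probe means on both sides of 0 (-0.039 and 0.31), neither of them past the test. In the fit of single probes, Slc25a53, Slc44a1 and Slc5a4b had a probe that did not pass beside others that did.

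Of 6 measured carriers of organic anions and cations, 3 were higher and 2 lower, against 30.1% and 33.9% of all genes. The remaining gene did not pass, and the group had a median of 0.45. Slc22a23, a member of the organic ion family without a settled substrate, had log2 ratios of 3.50, 3.50 and 3.38 (mean 3.46 ± 0.067, 11.0-fold higher, adjusted p = 2.58e-06), and was the highest of the group. Slco2a1, the prostaglandin transporter, had 1.67, 1.43 and 1.45 (mean 1.52 ± 0.13, 2.86-fold). Slc17a5, sialin, which exports sialic acid from lysosomes, had 1.49, 0.89 and 1.00 (mean 1.13 ± 0.32, 2.18-fold). These 3 genes were higher on every array, and Slc17a5 had an adjusted p of 0.0604 without moderation of the variance.

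The monocarboxylate carriers with a ratio on all arrays were lower in liver. Slc16a3, the lactate exporter MCT4 of glycolytic cells, had -0.995, -1.71 and -1.18 (mean -1.30 ± 0.37, 2.46-fold lower), and Slc16a13 had -1.72, -0.70 and -1.31 (mean -1.24 ± 0.52, 2.37-fold lower). Both were spread over more than 0.7 log2 units between arrays, and their adjusted p was 0.0616 and 0.0955 without moderation of the variance. With exact zeros kept, that of Slc16a13 was 0.0754. Slc16a1, which carries lactate and pyruvate, had no ratio on any array. Slc17a7, a vesicular glutamate carrier of neurons, had a mean of -0.22 ± 0.047 (adjusted p = 0.0703).

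Of 12 measured genes in the families grouped as amino acid carriers, 5 were higher and 3 lower, against 30.1% and 33.9% of all genes. The other 4 did not pass. The grouping is by family number, and Slc6a4 among the higher genes carries serotonin. The group had a median of 0.28 (0.48 without array 1 and 0.17 without array 2). Slc3a2, the heavy chain that brings Slc7 carriers to the cell surface, had log2 ratios of -1.34, -1.36 and -1.33 on arrays 1, 2 and 3. The mean of Slc3a2 was -1.35 ± 0.015 (2.54-fold lower in liver, adjusted p = 4.61e-05), and the 3 arrays lay within 0.03 of each other. Slc43a1, a carrier of large neutral amino acids, had -1.22, -0.91 and -0.97 (mean -1.03 ± 0.16), and Slc38a2, a sodium-coupled carrier induced by amino acid shortage, was lower by a smaller amount (-0.61 ± 0.045).

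On the other side stood Slc36a1, a proton-coupled carrier of small amino acids in lysosomes and at the cell surface, with 1.92, 1.55 and 1.65 (mean 1.71 ± 0.19, 3.26-fold higher, adjusted p = 3.8e-05). Slc66a2 (0.81 ± 0.25), Slc38a10 (0.70 ± 0.30), the glutamate carrier Slc1a2 (0.67 ± 0.44) and the serotonin carrier Slc6a4 (0.55 ± 0.092) were higher by less than 2-fold. For Slc1a2, array 1 was at 0.18 against 1.00 and 0.84 on arrays 2 and 3, and it no longer passed when array 2 (adjusted p = 0.0567) or array 3 (adjusted p = 0.0519) was left out. Without moderation of the variance, Slc1a2 (0.172), Slc38a10 (0.0988) and Slc66a2 (0.0677) had adjusted p-values above the threshold, as did Slc1a2 (0.159) and Slc38a10 (0.0788) with exact zeros kept. The glycine carrier Slc6a9 (0.38 ± 0.39), Slc6a21 (0.18 ± 0.55), Slc6a20b (0.14 ± 0.032) and the lysosomal arginine sensor Slc38a9 (-0.11 ± 0.25) did not pass. Slc6a9 and Slc6a21 were below 0 on array 1 alone, and without that array they passed at 0.59 and 0.46.

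Sugar carriers had 2 genes higher, 2 lower and 1 not past the test, beside 30.1% higher and 33.9% lower over all genes. Slc45a3, a member of the sucrose carrier family known from prostate, had 3.13, 3.13 and 2.85 (mean 3.04 ± 0.16, 8.21-fold higher, adjusted p = 4.76e-06). Slc5a11, a sodium-coupled inositol carrier, had -1.30, -1.83 and -1.84 (mean -1.66 ± 0.31, 3.16-fold lower, adjusted p = 0.000105). The other genes of the group lay closer to 0. Slc5a4b, of the sodium-glucose family and with a close paralog that its probes may also take up, was higher at 0.51 ± 0.017 and Slc50a1, a sugar carrier of the Golgi, lower at -0.41 ± 0.13, a call lost without array 3 (adjusted p = 0.0769), without moderation of the variance (0.0704) and with exact zeros kept (0.0509). Slc2a4, the insulin-regulated glucose carrier of muscle and fat, was at -0.019, 0.69 and 0.23 and did not pass, but passed without array 1 at 0.46 (adjusted p = 0.00829).

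The Slc35 family carries nucleotide sugars and related substrates into the Golgi and endoplasmic reticulum. Of 7 measured genes, 3 rose and 1 fell, against 30.1% and 33.9% of all genes. The other 3 missed the threshold, and the group had a median of 0.069 (0.034 without array 2). Slc35d2, a carrier of UDP-sugars, had 2.60, 2.44 and 2.49 (mean 2.51 ± 0.080, 5.69-fold higher). Slc35b1, which brings ATP into the endoplasmic reticulum, had 1.16, 1.36 and 0.98 (mean 1.17 ± 0.19), and Slc35a3, a carrier of UDP-N-acetylglucosamine, was higher at 0.57 ± 0.093. Slc35f2, which is not known for nucleotide sugars, had -2.04, -1.88 and -1.48 (mean -1.80 ± 0.29, 3.48-fold lower). The UDP-galactose carrier Slc35a2 (-0.045 ± 0.086), Slc35b3 (0.069 ± 0.061) and Slc35a4 (-0.40 ± 0.47) did not pass.

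Carriers of inorganic ions were the group with the lowest median, -0.56. Of 6 genes, 1 was higher and 3 lower, against 30.1% and 33.9% of all genes, and 2 did not pass. Slc12a2, the sodium-potassium-chloride cotransporter NKCC1 of growing and secreting cells, had -1.86, -1.997 and -1.87 (mean -1.91 ± 0.076, 3.76-fold lower, adjusted p = 1.39e-05). A further probe of Slc12a2 was at -2.40 and -2.21 on arrays 2 and 3 and had no ratio on array 1, while probe 8037 was at 0.32 on array 1, at -0.10 on array 3 and had no ratio on array 2. With exact zeros kept, the mean of Slc12a2 over all its probes was -0.84 (adjusted p = 0.0926). Slc9a9, a sodium-proton exchanger of endosomes, had -0.89, -1.46 and -1.18 (mean -1.18 ± 0.29, adjusted p = 0.0502 without moderation of the variance), and the bicarbonate carrier Slc4a8 was lower at -0.84 ± 0.16. Slc4a10, a bicarbonate carrier known from neurons, was higher, with 1.83, 1.21 and 1.35 (mean 1.46 ± 0.32). The testis exchanger Slc9b1 (-0.28 ± 0.24) and the chloride exchanger Slc26a3 (0.14 ± 0.43) did not pass, and both passed without array 1, at -0.42 and 0.36.

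Of 9 genes in the remaining families, 2 were higher and 2 lower, against 30.1% and 33.9% of all genes, and 5 did not pass. Slc27a4, a fatty acid transport protein, had 1.19, 1.14 and 1.21 (mean 1.18 ± 0.033, 2.27-fold higher), while its relative Slc27a1 had -0.20, -0.29 and -0.25 and narrowly missed the threshold (adjusted p = 0.0535). The log2 ratio of Slc27a4 exceeded that of Slc27a1 by 1.39, 1.43 and 1.46 on arrays 1, 2 and 3. Slc14a1, a urea carrier, had -0.999, -1.13 and -0.93 (mean -1.02 ± 0.10, 2.03-fold lower) on 1 probe, while its other probe was at 0.73 on array 1 and had no ratio elsewhere, and with exact zeros kept its mean was -0.39 (adjusted p = 0.135). The choline carrier Slc44a1 was lower at -0.48 ± 0.11 and the nucleoside carrier Slc28a2 higher at 0.46 ± 0.19, a call lost without moderation of the variance (adjusted p = 0.0943) and with exact zeros kept (0.0746). The nucleobase carrier Slc23a4 (0.039 ± 0.26), Slc46a2 (0.038 ± 0.35), the heme carrier Slc48a1 (-0.13 ± 0.12) and the riboflavin carrier Slc52a3 (-0.45 ± 0.53) did not pass.

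A further 4 of the 113 symbols begin with Slc but name no carrier. Slc9a3r2, a scaffold protein that binds transporters, had 0.33, 0.41 and 0.39 over 3 probes (mean 0.38 ± 0.043, adjusted p = 0.0112). It was higher on every array, and it no longer passed when array 2 (adjusted p = 0.0811) or array 3 (adjusted p = 0.11) was left out. Slc7a6os (-0.050 ± 0.41) and Slc6a19os (-0.22 ± 0.17) are genes named after a neighbouring carrier on the opposite strand, and did not pass. Slc9a3r1 had no ratio on any array.

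**Figure D4:**
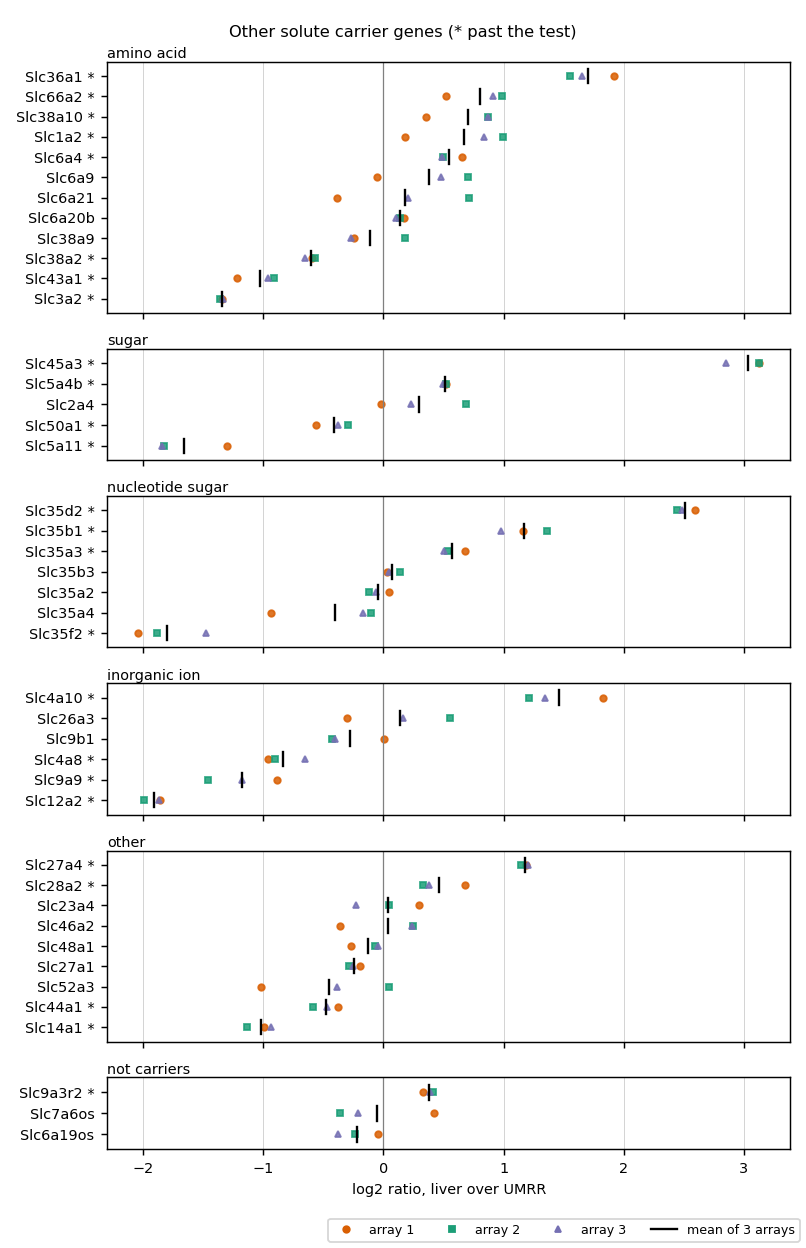
Log2 ratio of liver over UMRR (horizontal axis) on each array (points) with the mean of 3 arrays (black bar), for amino acid, sugar, nucleotide sugar and inorganic ion carriers, the remaining families and genes that are not carriers, with an asterisk after genes past the limma test. Slc45a3 lies farthest to the right at 3.04 and Slc12a2 farthest to the left at -1.91, and genes close to 0 often have array 1 on the other side of it.

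The arrays agreed in sign for 58 of the 74 genes (78.4%), beside 79.5% of all genes tested. Among the 16 genes with mixed signs, array 1 alone differed in 11, array 2 alone in 4 and array 3 alone in 1. None of the 16 passed the test, and the largest absolute mean among them was 0.45. The 29 genes past the test with a mean at least 1 away from 0 (19 higher and 10 lower) had 1 sign on every array. This largely follows from how they were selected and is no separate support. Their adjusted p-values by limma lay between 2.16e-06 and 0.0017.

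Several carriers known from hepatocytes had a ratio on only some arrays and entered no test. Slc38a4, a carrier of neutral and cationic amino acids, was at 5.69 on array 2 and at exact 0 on the others. Slc47a1, the MATE1 exporter of organic cations into bile and urine, was at 4.30 on arrays 2 and 3 with no ratio on array 1. Slc2a2, the glucose carrier GLUT2, was at 2.70 on array 1, and Slc22a18, an organic cation carrier from an imprinted region, at 2.86 on array 3, each with no ratio on the other arrays. Where these 4 genes had a ratio, it was over 6-fold higher in liver, and each value rests on 1 probe.

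Of the 39 genes without a ratio on all arrays, 11 had a probe measured on 2 arrays, 11 on 1 array and 17 on none. The counts that follow were not made over all partly measured genes, so they show no trait particular to solute carriers. Among the 22 genes with some ratio, 8 had a value at least 1 above 0 and none had a value at least 1 below 0. Besides the 4 genes above, these were Slc7a2, a cationic amino acid carrier (2.36 and 1.75 on arrays 2 and 3), the nucleoside carrier Slc29a1 (1.44 on arrays 1 and 2), the aromatic amino acid carrier Slc16a10 (1.01 on array 2) and the glutamate carrier Slc1a1 (1.04 on array 1 and 0.54 on array 3). The lowest values were those of the sulfate carrier Slc26a2, at -0.60 and -0.76 on arrays 2 and 3. The other 13 genes had every value between -0.59 and 0.46. When probes with a ratio on at least 2 arrays were let in, Slc47a1 (adjusted p = 2.98e-05), Slc29a1 (adjusted p = 0.000621), Slc7a2 (adjusted p = 0.000833), Slc26a2 (adjusted p = 0.00869) and Slc1a1 (adjusted p = 0.0139) passed. In that limma fit 53 of 85 solute carrier genes passed, against 3777 of all 6329 genes.

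**Figure D5:**
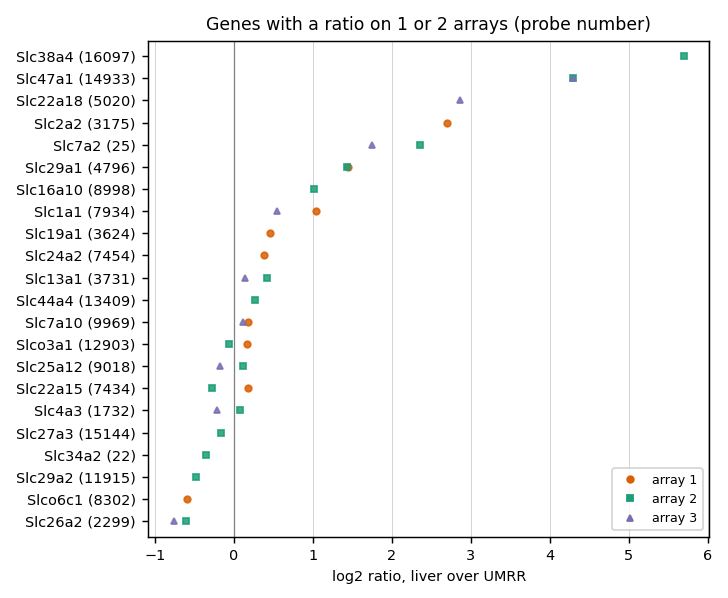
Log2 ratio of liver over UMRR (horizontal axis) for the 22 solute carrier genes with a ratio on 1 or 2 arrays, a point for each measured array, each row being a gene with its probe number. Slc38a4, Slc47a1, Slc22a18 and Slc2a2 lie between 2.70 and 5.69, and no gene lies below -0.76.

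The 17 genes listed at 0 on every array were Slco1b2, the hepatocyte carrier of organic anions, Slco1a6, Slc10a7, Slc16a1, Slc17a6, Slc22a17, Slc25a13, which is citrin of the urea cycle, Slc25a20, the carnitine carrier, Slc2a8, Slc31a1, Slc31a2, Slc35a5, Slc4a2, Slc6a13, Slc6a14, Slc8a1 and Slc9a3r1. An exact 0 says nothing of the level of these genes. Solute carrier probes were missing about as often as others, with 60.5% measured on all arrays against 62.7% of all probes with a single symbol, and 16.4% on no array against 16.3%.

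Other transport genes were set beside the carriers. The background of each count is 30.1% of all genes tested higher and 33.9% lower. Of 9 measured ABC transporters, which use ATP to export lipids, drugs and bile salts, 5 rose, 1 fell and 3 missed the threshold, and the median was 0.46. Abcg8, which exports sterols into bile, was at 3.20 ± 0.52 and Abcc3, an exporter of conjugates into blood, at 3.11 ± 0.34. Of the genes for carrier partners and the sodium pump, 2 were higher, 2 lower and 1 did not pass. Mpc1 of the mitochondrial pyruvate carrier was higher at 1.97 ± 0.091. The pump subunits went opposite ways, with Atp1b1 higher at 1.11 ± 0.13 and Atp1b3 lower at -0.94 ± 0.035.

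Of the aquaporins, Aqp11 was higher at 4.32 ± 0.21 and Aqp5 lower at -0.66 ± 0.34. The list of ATPases was chosen by the start of the symbol. It had 3 of 15 genes higher and 6 lower, against 30.1% and 33.9% of all genes. The other 6 did not pass, and the list had a median of -0.11. Its largest values past the test were those of Atp11a, a phospholipid flippase (-1.65 ± 0.082), and Atp2b1, a calcium pump of the plasma membrane (-1.10 ± 0.076). One of the 3 higher genes, Atp23, is a protease that the rule on the symbol also took. Other marker lists were those of islets (2 of 2 genes higher, median 0.76) and endothelium (1 of 2, median 0.90). Those of intestine (1 of 1, at 0.50) and brain (2 of 2, median 0.32) were nearer to 0. Over all genes tested, 30.1% were higher. No kidney tubule gene had a ratio on all arrays. On arrays 2 and 3, Cdx2 of intestine was at -0.26 and -0.15 and Aqp2 of kidney at -0.43 and -0.29. Snap25 of brain was at -0.032 on array 2. These 3 genes had no other ratio.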

How the data were processed

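Liver RNA (Cy5) and UMRR (Cy3) were measured on 3 arrays of 2 colours, 1 group of 3 replicates, per the labels. The deposited table holds 1 log2 ratio per probe and array, as processed by the authors. Log base 2 was assumed. The sources used here name no scanner, background correction or dye normalization and give no intensities, so no filter on dim probes was applied. The number of arrays limits the precision.

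An exact 0 was read as no ratio (32.2%, 23.5% and 29.6% of probes on arrays 1, 2 and 3). Probes were named from the platform annotation, of which 12336 had 1 symbol, 61 several and 3876 none. The reference gene table (GRCm38.p6) matched 12228 of the 12336 and changed 0 symbols. Probes of 1 symbol with a ratio on all 3 arrays were averaged per array. An intercept was fitted over all 5520 genes with lmFit and eBayes (limma 3.58.1, R 4.3.3), two-sided, at a Benjamini-Hochberg adjusted p of 0.05. The fit was tested on simulated data.

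Groups follow the family number, and the 4 symbols that name no carrier were set apart from them afterwards. The text names every member measured on all arrays, with array values for those past the test with 1 sign and a mean at least 1 away from 0, the called gene farthest against the median of each group, and Slc40a1. Of other transport lists it takes the 2 largest past the test, and a few further genes, chosen after their values were seen. The members and lists were chosen with earlier results of these data known. Alternatives changed the centring, scaling, arrays, probes, exact zeros, variance moderation and null hypothesis. RefSeq promoters (GRCm38.p6) were found for 92 of 113 genes.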

Additional observations from a re-analysis of the deposited data

How the results depend on the processing

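Leaving out 1 array at a time gave 43 to 60 solute carrier genes past the test, against 48 with all arrays. Of them 29 to 39 were higher and 14 to 21 lower, against 32 and 16. Over all 5520 genes the same fits gave 2755 to 4004 past the test, against 3535. With at least a 2-fold difference on all arrays left in there were 22 to 23 genes, against 21. That count cannot fall when an array is left out, so it is no check. The median of the 74 genes was 0.13 to 0.28 in these fits. Tested against a 2-fold difference in place of a ratio of 1, 16 genes passed (11 higher and 5 lower), against 816 of all 5520. The null hypothesis of that test is stricter. If the values are natural logs, the count at least 2-fold lower on each array was 10, against 5. The count at least 2-fold higher was then 20, against 16. Neither was counted over all genes in that setting. With probes on at least 2 arrays let in, the median was 0.17 for organic ion carriers and -0.48 for inorganic ion carriers. With exact zeros kept, the medians were 0 for organic ion carriers, 0.050 for metal carriers, -0.081 for inorganic ion carriers and 0.039 for all solute carrier genes, since probes at 0 enter. Centring, scaling, the median probe, and eBayes with trend and robust gave 48 or 49 genes past the test (3490 to 3568 of all 5520). Without moderation of the variance 36 passed, against 2087 of all 5520 genes. On single probes, 45 of the 74 genes had every measured probe past the test with 1 sign. Taken singly, 6427 of all 9910 probes passed, a count of another unit. No called gene changed its sign under any of these settings. With exact zeros kept 13 calls were lost and 3 gained, and without moderation 15 were lost and 3 gained. Besides the genes named above, Slc7a6os, Slc6a19os, Slc17a7, Slc46a2 and Slc27a1 passed without array 1, and Slc25a35 and Slc52a3 without array 2. No paired analysis was possible because there is 1 group of arrays. Only arrays of 1 dye orientation, with signal over background unknown, limit small ratios.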
